A study of Mus musculus with 12 samples.

Results

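The 10 genes of the vascular endothelial growth factor (VEGF) system were followed in RNA-seq libraries of primary mouse mesangial cells (MMC), the contractile cells that hold the capillary loops of the glomerulus. They were taken by symbol and make up 10 of the 25230 genes in the deposited counts: the ligands Vegfa, Vegfb, Vegfc, Vegfd and Pgf, the tyrosine kinase receptors Flt1, Kdr and Flt4, and the co-receptors Nrp1 and Nrp2. Wild-type (WT) mice gave one set of MMC and the homozygous lncMGC-KO5 line (KO) the other, a line that Cas9 and a pair of guide RNAs had left with a small deletion near the start of lncMGC, the long non-coding host transcript of the miR-379 cluster. Cells of either genotype were serum-depleted (SD) or received 10 ng/ml TGF-β over 24 h (TGF), which made 4 groups of 3 libraries, named WT-SD, KO-SD, WT-TGF and KO-TGF here. The comparisons ask what TGF-β did to these genes in either genotype, how the genotypes differed in either condition, and whether the response itself differed.

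KO5 is 1 mouse line, its founders were made in C57BL/6J embryos and crossed to C57BL/6 mice, glomeruli were pooled before culture, and the mice per group were not given in the sources used here. The study calls the samples of a group independent, without saying in the sources used here whether they came from separate cultures or mice. The p-values therefore measure the spread between these libraries, part of which may be technical, and genotype cannot be told apart from the cultures it was measured in. lncMGC is not among the counted genes. Levels are given as counts-per-million (CPM) of TMM-scaled libraries, which correct for depth and not for gene length. Mirg, which overlaps the far end of lncMGC and lies outside the deletion, ranged from 2.1 to 2.64 CPM in WT-SD, from 3.46 to 3.76 in WT-TGF, from 3.32 to 4.31 in KO-SD and from 3.69 to 4.7 in KO-TGF. It was thus higher in KO-SD than in WT-SD and overlapped between the TGF groups, which does not check the deletion, and KO below stands for the libraries so labelled. Each library held between 19898050 and 22827706 counts on genes, and 3 counts, taken as the floor of detection, correspond to 0.128 to 0.163 CPM. Within a group, libraries correlated at 0.9963 or more over the genes tested (log2 CPM, across genes).

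VEGF ligands are secreted dimers that tell endothelial cells to survive, sprout and keep their barrier. Kdr (VEGFR2) carries most of that signal, Flt1 (VEGFR1) binds Vegfa, Vegfb and Pgf and in a secreted form acts as a decoy, and Flt4 (VEGFR3) takes Vegfc and Vegfd in lymphatic vessels. The neuropilins Nrp1 and Nrp2 have no kinase and present ligands to these receptors, and also receive semaphorins. In the glomerulus the podocyte is the best known source of Vegfa, and the neighbouring endothelium carries Kdr.

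The most abundant members were 1 ligand and 1 co-receptor, and the 3 kinase receptors were low throughout. In RPKM, here TMM-scaled CPM per kilobase of exon, a scale on which genes can be compared, WT-SD MMC held 79.7 of Nrp1, 34.8 of Vegfa, 19.2 of Vegfb, 9.67 of Nrp2, 4.28 of Vegfc, 4.10 of Vegfd, 1.38 of Flt1 and 0.434 of Pgf, as means of 3 libraries. Neighbours among these 8 did not overlap between libraries, other than Vegfc and Vegfd. In KO-TGF the order began with Vegfa at 127 RPKM, followed by Nrp1 at 54.6, Nrp2 at 20.6, Vegfc at 9.81, Vegfb at 6.71, Flt1 at 1.01, Pgf at 0.983 and Vegfd at 0.753, and Flt1 and Pgf overlapped. Kdr and Flt4 were the lowest in all 4 groups. Against the 11476 genes tested, Nrp1 stood above 97.5% of them in WT-SD and Vegfa above 98.1% in KO-TGF, whereas Vegfd stood above 34.1% in WT-SD and above 2.84% in WT-TGF.

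Of the 10 genes, 8 passed the filter on low values (RPKM >1 in at least 1 library). Vegfa, Vegfb, Vegfc, Nrp1 and Nrp2 passed it in all 12 libraries and Flt1 in 8. Those of Flt1 were 3 of WT-SD, 3 of WT-TGF, 2 of KO-TGF and 0 of KO-SD, so it passed mainly in WT, where it was higher. Vegfd passed only in the 6 SD libraries and Pgf only in 1 KO-TGF library, so these genes entered the test through the groups where they were high. Kdr and Flt4 passed in none and were read from a second fit, without that filter, on the 18565 genes counted at all. Fold changes, standard errors (SE) and adjusted p-values come from the quasi-likelihood test of edgeR, adjusted by Benjamini-Hochberg over all genes of a fit, and a gene was called at FDR <5%.

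Upstream windows are shown for a ligand that rose and a ligand that fell with TGF-β (Vegfa and Vegfd) and for the kinase receptor and the co-receptor that differed between genotypes in both conditions (Flt1 and Nrp2), so that a reader can see how unlike these starts are. Each is the RefSeq window from 250 bases before to 50 after the first listed transcription start in GRCm38.p6 (the assembly of mm10), read 5′ to 3′ on the strand of the gene: Vegfa at chr17:46032328-46032627 (minus strand), Vegfd at chrX:164373272-164373571 (plus), Flt1 at chr5:147725962-147726261 (minus) and Nrp2 at chr1:62703067-62703366 (plus). Capitals mark CAGAC, the core bound by SMAD proteins, and GGGCGG, a box bound by SP1 and its relatives, on either strand.
Vegfa: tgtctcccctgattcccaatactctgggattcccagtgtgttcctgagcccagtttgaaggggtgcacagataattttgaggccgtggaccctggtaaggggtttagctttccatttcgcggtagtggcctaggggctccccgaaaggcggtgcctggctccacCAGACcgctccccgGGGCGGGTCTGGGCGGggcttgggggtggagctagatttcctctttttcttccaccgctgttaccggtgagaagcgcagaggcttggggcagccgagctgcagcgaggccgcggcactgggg
Vegfd: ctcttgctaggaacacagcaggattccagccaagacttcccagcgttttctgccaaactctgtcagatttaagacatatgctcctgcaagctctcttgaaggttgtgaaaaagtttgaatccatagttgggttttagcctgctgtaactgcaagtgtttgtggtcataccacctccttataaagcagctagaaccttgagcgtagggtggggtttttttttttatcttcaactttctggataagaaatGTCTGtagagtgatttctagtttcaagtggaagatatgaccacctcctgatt
Flt1: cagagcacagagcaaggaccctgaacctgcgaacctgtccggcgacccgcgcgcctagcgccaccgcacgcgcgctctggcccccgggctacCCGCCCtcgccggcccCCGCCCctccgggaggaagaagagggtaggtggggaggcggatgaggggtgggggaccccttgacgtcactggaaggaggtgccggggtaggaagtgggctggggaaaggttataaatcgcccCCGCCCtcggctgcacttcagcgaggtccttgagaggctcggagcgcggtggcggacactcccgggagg
Nrp2: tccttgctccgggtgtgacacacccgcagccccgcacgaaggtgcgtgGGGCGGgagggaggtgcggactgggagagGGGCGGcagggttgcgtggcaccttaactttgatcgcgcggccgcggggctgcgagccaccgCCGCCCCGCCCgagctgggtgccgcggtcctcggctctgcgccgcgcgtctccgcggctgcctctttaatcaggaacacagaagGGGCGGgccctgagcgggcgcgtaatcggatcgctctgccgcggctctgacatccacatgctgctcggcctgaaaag
The Vegfa window holds 2 CAGAC and 2 GGGCGG in 1 short stretch, where a pair share a base, and 62% of its bases are G or C. The Vegfd window holds 1 CAGAC, no GGGCGG and 42% G or C, the lowest of the 10 members (the highest was 75.3%, for Vegfb), against a median of 52.7% over 32851 windows of the same length. The Flt1 window holds 3 GGGCGG, the Nrp2 window 5 of which a pair overlap, and both have 70.7% G or C. Over the first windows of all 10 members, GGGCGG was found in 9 and CAGAC in 4 (Vegfa, Vegfd, Pgf and Nrp1), while 35.7% and 49.6% of all windows hold them. GTCTAGAC (the SMAD palindrome, 0.213% of all windows), ACGTG (a core bound by HIF, 19.6%), TGANTCA (AP-1, 7.81%) and GGAATG (TEAD, 14.7%) were found in none of the 10, and CCGGAA (ETS, 14.9%) only in that of Kdr. Vegfa and Pgf each have a further listed window, left out of these counts, and that of Vegfa holds 1 ACGTG. The percentages cover all windows, including further windows of a gene. These letters were searched on both strands, and a match describes the window and is not a measured site.

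TGF-β raised 3 ligands and lowered 2 in WT MMC. Vegfa, Vegfc and Pgf rose and Vegfb and Vegfd fell, so that the ligand mixture shifted toward Vegfa. Among all 8 members tested in WT, 8 were called (5 higher, 3 lower), where 72.7% of all genes tested were called, 39.3% higher and 33.4% lower, so that the count itself is near what the whole transcriptome gave. With fold change >2 the members counted 3 higher and 2 lower, against 4.43% and 5.33% of all genes. In KO, 7 of 8 were called (3 higher, 4 lower; fold change >2 in 1 and 2), against 74.2% of all genes (36.4% and 37.8%; fold change >2 in 4.52% and 8.81%). The median log2 fold change of the 8 was 0.53 in WT and -0.08 in KO, against 0.03 and -0.01 over all genes. SD and TGF libraries did not overlap for 8 of 8 members in either genotype, which held for 75.3% of all genes in WT and 74.5% in KO.

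**Figure D1:**
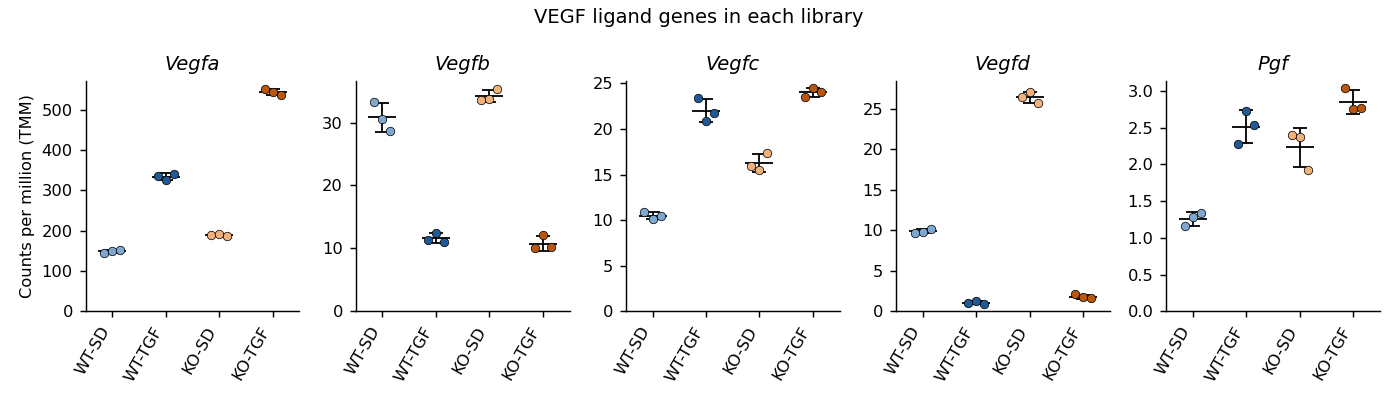
CPM (vertical axis, from 0, with its own scale in each panel) of the 5 VEGF ligand genes in each of the 12 libraries (points), by group along the horizontal axis, with bars for the mean and SD of 3 libraries. Vegfa was highest in KO-TGF and Vegfd in KO-SD, and Vegfb was low in both TGF groups.

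Vegfa, the main driver of vessel growth and permeability (NCBI Gene 22339, chromosome 17, 46016993 to 46032377, minus strand, 13 annotated transcripts), had 145, 151 and 152 CPM in the 3 WT-SD libraries and 337, 325 and 342 in WT-TGF. In KO it had 189, 192 and 186 CPM in SD and 551, 544 and 536 in TGF. No 2 groups overlapped, and the order from low to high was WT-SD, KO-SD, WT-TGF and KO-TGF. The log2 fold change with TGF-β was 1.17 in WT (SE 0.0273, adjusted p = 5.25e-26) and 1.52 in KO (SE 0.0267, adjusted p = 2.75e-29), and the difference of these responses, KO minus WT, was 0.36 (SE 0.038, adjusted p = 9.77e-09). In level, KO exceeded WT by 1.27-fold in SD (log2 0.34, SE 0.028, adjusted p = 6.16e-12) and by 1.62-fold in TGF (log2 0.70, SE 0.0257, adjusted p = 1.80e-20). Gene counts do not separate its splice forms, which differ in how they bind heparan sulfate.

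Vegfd (NCBI Gene 14205, chromosome X, 164373522 to 164402650, plus strand), a ligand best known for lymphatic vessels, moved the other way and by the largest factor of the 8 members tested. Its 3 libraries had 9.71, 9.79 and 10.2 CPM in WT-SD and 1.09, 1.25 and 0.941 in WT-TGF, which are 217 to 230 raw counts against 19 to 28. In KO the values were 26.5, 27.1 and 25.7 CPM in SD and 2.11, 1.73 and 1.6 in TGF. All libraries of a group lay apart from those of every other group, and both TGF groups lay below both SD groups. The fall was 8.94-fold in WT (log2 -3.16, SE 0.132, adjusted p = 1.66e-19) and 14.5-fold in KO (log2 -3.86, SE 0.102, adjusted p = 1.00e-24), the 23rd and the 37th lowest log2 fold change of 11476 genes. Vegfd is among these genes only through its SD libraries, where it was high, so the ranks are tied to the filter and only describe. KO was 2.67-fold above WT in SD (log2 1.42, SE 0.0684, adjusted p = 1.74e-17) and 1.64-fold above in TGF (log2 0.72, SE 0.204, adjusted p = 0.00342). The fall was deeper in KO by 0.70 on the log2 scale (interaction -0.70, SE 0.22, adjusted p = 0.0172), a call that was lost without WT-TGF replicate 2 (-0.59, adjusted p = 0.121), without KO-TGF replicate 3 (-0.62, adjusted p = 0.0609) and in DESeq2 (-0.66, adjusted p = 0.0525).

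Vegfb (NCBI Gene 22340, chromosome 19, 6982472 to 6987651, minus strand), a ligand of Flt1 tied to fatty acid handling and vessel survival, fell with TGF-β in both genotypes. It had 33.2, 30.6 and 28.6 CPM in WT-SD, 11.3, 12.5 and 11.1 in WT-TGF, 33.5, 33.7 and 35.3 in KO-SD and 10, 12.1 and 10.2 in KO-TGF. SD and TGF libraries were far apart, whereas WT-TGF and KO-TGF overlapped. The fall was 2.64-fold in WT (log2 -1.40, SE 0.0695, adjusted p = 1.36e-17) and 3.17-fold in KO (log2 -1.67, SE 0.0722, adjusted p = 3.63e-19), and these responses did not differ past the threshold (interaction -0.26, SE 0.105, adjusted p = 0.0634). That value passed without WT-SD replicate 1 (-0.32, adjusted p = 0.0253), KO-SD replicate 1 (-0.28, adjusted p = 0.0464) or KO-TGF replicate 2 (-0.35, adjusted p = 0.018). KO stood 1.11-fold above WT in SD (log2 0.15, adjusted p = 0.0268), a call lost without WT-SD replicate 2 (adjusted p = 0.0672), WT-SD replicate 3 (0.173) or KO-SD replicate 3 (0.103). The call was also lost in DESeq2 (0.11, adjusted p = 0.235), in the fit of these groups alone (0.12, adjusted p = 0.0744) and with library size alone (0.05, adjusted p = 0.527).

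Vegfc (NCBI Gene 22341, chromosome 8, 54077532 to 54186454, plus strand), the main growth factor of lymphatic endothelium, rose with TGF-β. The 3 libraries had 10.9, 10.1 and 10.5 CPM in WT-SD, 23.4, 20.9 and 21.7 in WT-TGF, 15.9, 15.5 and 17.4 in KO-SD and 23.5, 24.5 and 24.1 in KO-TGF. KO began higher and ended near WT. The rise was 2.1-fold in WT (log2 1.07, SE 0.0685, adjusted p = 8.61e-15) and 1.48-fold in KO (log2 0.56, SE 0.0642, adjusted p = 3.82e-09), a difference of -0.51 in log2 response (SE 0.0947, adjusted p = 0.000107). In SD, KO was 1.55-fold above WT (log2 0.64, SE 0.0723, adjusted p = 7.13e-09). In TGF the difference was 0.13 (SE 0.061, adjusted p = 0.0772), which passed without WT-TGF replicate 1 (0.17, adjusted p = 0.0303).

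Pgf, placental growth factor (NCBI Gene 18654, chromosome 12, 85166637 to 85177785, minus strand), binds Flt1 and was the lowest ligand per length in SD. It had 26 to 30 raw counts in WT-SD, 48 to 61 in WT-TGF, 42 to 52 in KO-SD and 51 to 56 in KO-TGF, or means of 1.26 ± 0.0904, 2.51 ± 0.229, 2.23 ± 0.264 and 2.85 ± 0.159 CPM (SD, n = 3). WT-SD lay below the other groups. In WT it rose 1.99-fold (log2 0.99, SE 0.186, adjusted p = 2.01e-05), and in KO-SD it was 1.76-fold above WT-SD (log2 0.82, SE 0.191, adjusted p = 0.000469). The response in KO (log2 0.35, SE 0.166, adjusted p = 0.0547) and the interaction (-0.64, SE 0.251, adjusted p = 0.0586) missed the threshold by little, and each passed without 1 library: the first without WT-TGF replicate 2 (0.37, adjusted p = 0.0492), which enters through the shared spread, and the second without KO-SD replicate 3 (-0.73, adjusted p = 0.0384).

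As shares of the summed ligand RPKM, Vegfa took 55.4% ± 1.86 in WT-SD and 81.6% ± 0.677 in WT-TGF, and 52.6% ± 0.776 in KO-SD and 87.4% ± 0.503 in KO-TGF (SD, n = 3). Vegfb went from 30.5% to 7.58% in WT and from 25.4% to 4.62% in KO. Vegfd went from 6.54% to 0.476% in WT and from 13.1% to 0.518% in KO. The summed ligand RPKM was 62.8 ± 0.561 in WT-SD, 95.7 ± 1.73 in WT-TGF, 83.8 ± 0.43 in KO-SD and 145 ± 1.91 in KO-TGF. SD and TGF libraries did not overlap in any of these 4 measures. The shares are parts of a whole, so a rise of Vegfa alone lowers the others, and no test was run on them.

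**Figure D2:**
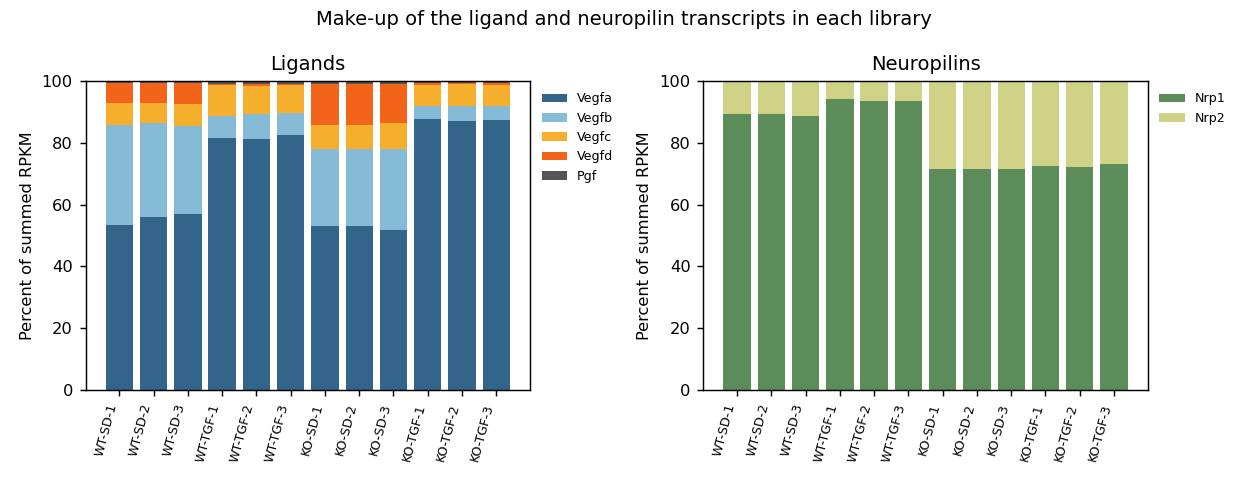
Percent of the summed RPKM (vertical axis) taken by each ligand gene (left) and each neuropilin gene (right) in each of the 12 libraries (bars along the horizontal axis). Vegfa took 81.1% to 82.4% of ligand RPKM in WT-TGF and 86.9% to 87.8% in KO-TGF, and Nrp2 took 28.6% of neuropilin RPKM in KO-SD against 10.6% to 11.2% in WT-SD.

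Flt1 was the only kinase receptor tested, and the genotypes differed in it more after TGF-β than before. Flt1 (NCBI Gene 14254, chromosome 5, 147561604 to 147726438, minus strand, 6 annotated transcripts) had 19.1, 17.9 and 18.9 CPM in WT-SD, 42.3, 43.4 and 39.3 in WT-TGF, 10.8, 10.8 and 10.5 in KO-SD and 14, 12.9 and 13.9 in KO-TGF. All KO libraries lay below all WT libraries, also when KO-TGF is set against WT-SD. WT-TGF was 3.06-fold above KO-TGF (log2 -1.61 for KO against WT, SE 0.0596, adjusted p = 1.97e-20), and WT-SD was 1.73-fold above KO-SD (log2 -0.79, SE 0.0684, adjusted p = 1.89e-11). In CPM, TGF-β added 23 in WT and 2.9 in KO. As log2 fold changes the rises were 1.16 in WT (SE 0.0539, adjusted p = 2.42e-18) and 0.35 in KO (SE 0.0755, adjusted p = 0.00015), the latter not past the threshold with scaling by library size alone (0.13, adjusted p = 0.122). Counts per gene cannot tell the membrane receptor from the secreted decoy.

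Kdr and Flt4 were near the floor. Kdr (NCBI Gene 16542, chromosome 5, 75932827 to 75979072, minus strand) had 5, 5 and 9 raw counts in WT-SD, 2, 2 and 6 in WT-TGF, 5, 10 and 9 in KO-SD and 0, 3 and 4 in KO-TGF. Flt4 (NCBI Gene 14257, chromosome 11, 49609679 to 49652739, plus strand) had 10, 12 and 10 in WT-SD, 9, 5 and 9 in WT-TGF, 7, 5 and 4 in KO-SD and 1, 1 and 2 in KO-TGF. Flt1 thus took between 91.7% and 98% of the summed RPKM of the 3 kinase receptors in the group means.

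In that second fit, Flt4 was called lower for KO against WT in TGF (4 counts in all against 23, ratio 0.198, 95% exact interval 0.0499 to 0.581 for counting error only, adjusted p = 0.00497), where 39% of the genes of the fit were called, 20.3% lower. Flt4 was also called lower in KO-TGF than in KO-SD (4 counts against 16, ratio 0.288, interval 0.07 to 0.892, adjusted p = 0.0485), as was Kdr (7 counts against 24, ratio 0.336, interval 0.122 to 0.803, adjusted p = 0.0289), where 52.3% of the genes were called, 28.5% lower. Neither of these last calls held in DESeq2 (adjusted p = 0.109 for Flt4 and 0.117 for Kdr). The Kdr call was lost without KO-SD replicate 2 or 3 or KO-TGF replicate 1 (adjusted p = 0.121, 0.0753 and 0.224), and the Flt4 call without any one of 10 libraries, all but WT-SD replicate 2 and KO-SD replicate 3, with adjusted p between 0.0521 and 0.154. The other contrasts of these genes missed the threshold (Flt4: adjusted p = 0.501 for TGF-β in WT and 0.125 for KO against WT in SD; Kdr: 0.286, 0.535 and 0.822 for KO against WT in TGF), with interactions at 0.38 and 0.743, where 51.6%, 41.3% and 17.3% of the genes of that fit were called. At this depth, differences in these receptors were mostly not detectable.

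**Figure D3:**
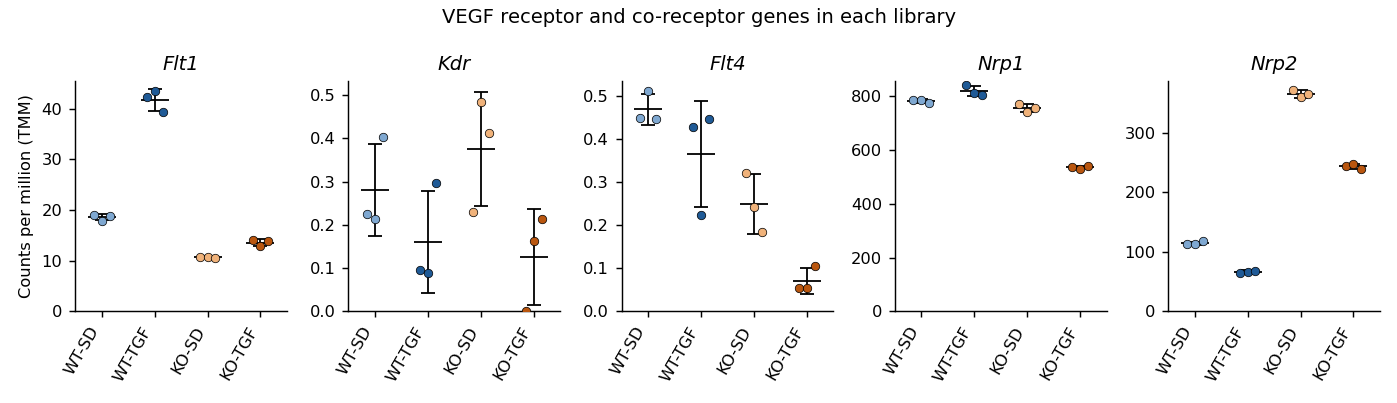
CPM (vertical axis, from 0, with its own scale in each panel) of the 3 kinase receptor genes and the 2 neuropilin genes in each of the 12 libraries (points), by group along the horizontal axis, with bars for the mean and SD of 3 libraries. Flt1 was highest in WT-TGF, Nrp2 was higher in both KO groups, Nrp1 was lowest in KO-TGF, and Kdr and Flt4 lay at 0.511 CPM or below.

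Nrp2 was higher in KO in both conditions, and Nrp1 was lower in KO after TGF-β. Nrp2 (NCBI Gene 18187, chromosome 1, 62703317 to 62818692, plus strand), which favours Vegfc and class 3 semaphorins, had 113, 113 and 118 CPM in WT-SD and 64, 66.6 and 68.8 in WT-TGF. In KO it had 372, 360 and 365 CPM in SD and 244, 248 and 240 in TGF. Every KO library lay above every WT library. KO was 3.19-fold above WT in SD (log2 1.67, SE 0.0285, adjusted p = 6.39e-29) and 3.67-fold above in TGF (log2 1.88, SE 0.0313, adjusted p = 4.33e-29), where it was the 59th highest log2 fold change of 11476. TGF-β lowered it 1.72-fold in WT (log2 -0.79, SE 0.0327, adjusted p = 1.51e-19) and 1.5-fold in KO (log2 -0.58, SE 0.0271, adjusted p = 2.13e-18), and the fall was smaller in KO by 0.20 (SE 0.0425, adjusted p = 0.000445).

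Nrp1 (NCBI Gene 18186, chromosome 8, 128358591 to 128505476, plus strand), the partner of Vegfa and Kdr, had 783, 785 and 772 CPM in WT-SD, 839, 811 and 803 in WT-TGF, 769, 741 and 755 in KO-SD and 535, 530 and 538 in KO-TGF. KO-TGF lay well below the other groups, which differed little. In KO, TGF-β lowered Nrp1 1.41-fold (log2 -0.50, SE 0.0231, adjusted p = 1.89e-18), and KO-TGF was 1.53-fold below WT-TGF (log2 -0.61, SE 0.0231, adjusted p = 3.01e-20). The response differed between genotypes by -0.57 (SE 0.0324, adjusted p = 1.14e-14). The response in WT was a log2 fold change of 0.07 (SE 0.0227, adjusted p = 0.00872), which was lost without WT-TGF replicate 1 (0.05, adjusted p = 0.0814) and in DESeq2 (0.03, adjusted p = 0.347) and turned to -0.12 with library size alone (adjusted p = 1.44e-05), so that its direction depends on the scaling. In SD the genotypes differed by -0.05 (SE 0.0227, adjusted p = 0.0764), which passed without KO-SD replicate 1 (-0.06, adjusted p = 0.0186), in the fit of these groups alone (-0.08, adjusted p = 0.012), in DESeq2 (-0.09, adjusted p = 0.000589) and with library size alone (-0.15, adjusted p = 7.41e-07). Mir1903 lies in Nrp1 on the same strand. The summed neuropilin RPKM was 89.4 ± 0.442 in WT-SD, 89.2 ± 1.78 in WT-TGF, 108 ± 1.92 in KO-SD and 75.2 ± 0.124 in KO-TGF (SD, n = 3), and the share of Nrp2 in it was 10.8%, 6.3%, 28.6% and 27.4%.

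In KO against WT, 7 of 8 members were called in SD (6 higher, 1 lower; fold change >2 in 2 and 0), where 57.1% of all genes were called (35.6% higher, 21.5% lower; fold change >2 in 3.35% and 2.98%). In TGF 5 were called (3 higher, 2 lower; fold change >2 in 1 and 1), where 55.1% of all genes were called (28.9% and 26.3%; 1.47% and 4.51%). WT and KO libraries did not overlap for 8 members in SD and 7 in TGF, against 60.4% and 61.8% of all genes. All 5 ligands were higher in KO-SD than in WT-SD, with log2 fold changes from 0.15 for Vegfb, whose call was lost in other fits, to 1.42 for Vegfd, and in TGF Vegfa and Vegfd were the ligands past the threshold. Flt1 was lower in both conditions and Nrp2 higher in both. The interaction called 6 of 8 (2 higher, 4 lower), where 26.4% of all genes were called (7.69% and 18.7%). None of these 6 differences was above a factor of 2, where 0.331% of all genes were higher and 2.54% lower by more. Vegfa and Nrp2 had the higher log2 response in KO, and Vegfc, Vegfd, Flt1 and Nrp1 the lower. Among these, the call of Vegfd was lost in DESeq2 and without some single libraries. The contrasts share groups of libraries with one another, so the counts are not independent.

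**Figure D4:**
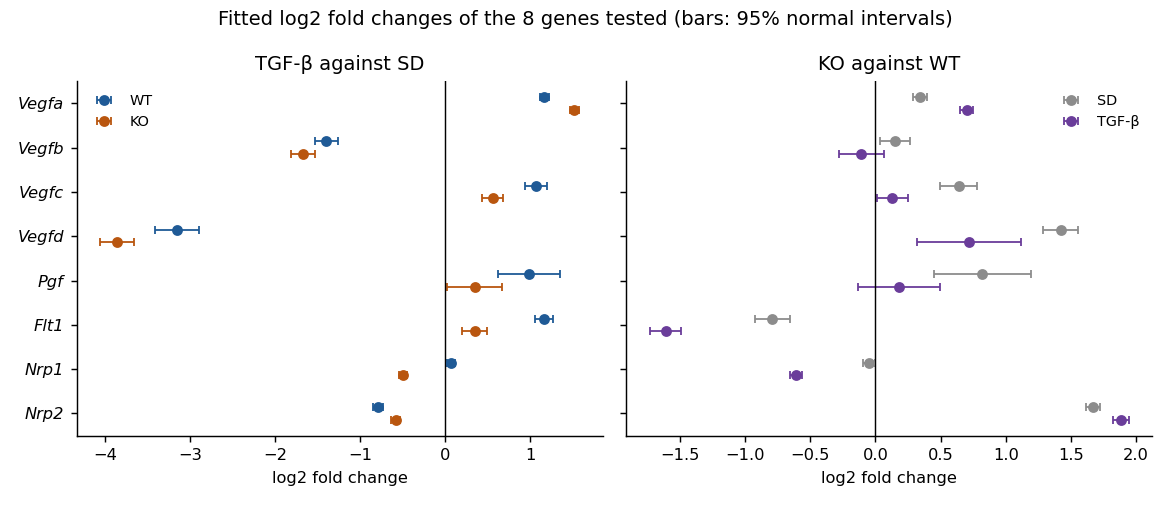
Log2 fold changes (horizontal axis) of the 8 genes tested, with bars for 95% normal intervals, for TGF-β against SD in WT and KO (left) and for KO against WT in SD and TGF (right). Nrp1 had 0.07 in WT, which turned to -0.12 with library size alone, and -0.50 in KO, and Nrp2 and Flt1 have the values farthest from 0 for KO against WT in TGF (1.88 and -1.61).

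The scaling of the libraries bears on small changes. When libraries were scaled by size and not by TMM, the median log2 fold change of all genes moved by -0.188 for TGF-β in WT, -0.218 in KO, -0.103 for KO against WT in SD and -0.133 in TGF. Of the genes called, 54.1%, 49%, 62.3% and 52.4% were higher in these 4 contrasts with TMM, and 30.6%, 25.7%, 37% and 23.5% with library size alone. The directions given for Vegfa, Vegfb, Vegfd, Pgf, Flt1 and Nrp2 were the same in the 5 contrasts under both.

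The identity of the cells was read from markers. Of 14 mesangial and smooth muscle markers 9 were tested, among them Acta2 (means of 1540 CPM in WT-SD, 2940 in WT-TGF, 3256 in KO-SD and 6361 in KO-TGF) and Pdgfrb (283, 385, 307 and 363 in the same order), whereas Agtr1a and Thy1 had at most 3 counts and Itga8 0.646 to 3.05 CPM. The tested markers did not move one way between genotypes: 7 were higher in KO-SD and 2 lower, and 6 and 3 in KO-TGF. Des (desmin) averaged 7.53 and 5.64 CPM in WT-SD and WT-TGF and 0.53 and 0.25 in KO (log2 -3.82 in SD and -4.46 in TGF, adjusted p = 3.18e-17 and 6.92e-16). Serpine2 averaged 273 and 194 CPM in WT and 84.1 and 44.9 in KO (log2 -1.70 and -2.11, adjusted p = 9.46e-26 and 1.03e-26). Of 16 endothelial markers 1 was tested. Cldn5, Robo4 and Sox17 had 0 counts in all 12 libraries, Cdh5, Tie1, Emcn, Sox18, Mmrn2 and Icam2 had at most 3, and Pecam1 had at most 4. The summed level of the 16, almost all from Ehd3, was 32.9 to 33.7 CPM in WT-SD, 20.6 to 23.1 in WT-TGF, 17.4 to 19 in KO-SD and 9.95 to 11.7 in KO-TGF. Of 6 lymphatic markers, Ccl21a had 0 counts and Lyve1, Reln and Mmrn1 at most 3. The Pdpn-led sum was 274 to 283, 220 to 227, 60.4 to 63.4 and 48.9 to 53 CPM, whereas Prox1, the lymphatic regulator, averaged 2.57, 4.06, 2.83 and 3.75.

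The other cell types differed with the groups. Of 12 macrophage markers 3 were tested. The summed level of all 12 was 27.3 to 28.9 CPM in WT-SD, 17.6 to 21.7 in WT-TGF, 2.07 to 2.23 in KO-SD and 0.864 to 1.57 in KO-TGF. Adgre1 (F4/80) averaged 7.54 and 3.97 CPM in the WT groups and had no count in KO. Of 13 podocyte markers 7 were tested (sums of all 13: 1107 to 1120, 1968 to 2026, 814 to 833 and 2079 to 2097 CPM, led by Nes), and Nphs1 and Ptpro, which help define the podocyte, had at most 1 and 2 counts in any library. Of 14 tubular markers 5 were tested (sums of all 14: 312 to 326, 137 to 153, 174 to 189 and 72 to 75 CPM, led by Pax8), and Slc34a1, Umod and Aqp2 had no count. Macrophage and tubular sums and the sums led by Ehd3 and Pdpn were lower in KO in both conditions, as Flt1 was. Of the 5 tested tubular markers 1, Aqp1, was higher and 4 lower in KO-SD, and 0 and 5 in KO-TGF. The podocyte sum was lower in KO-SD and higher in KO-TGF, and the mesangial sum was higher in KO in both (8727 to 8843 against 6172 to 6422 CPM in SD, and 17641 to 17793 against 10862 to 11042 in TGF). Their part in the differences of Flt1 and the other members was not tested. In bulk RNA, fewer cells of a type and less RNA per cell cannot be told apart.

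Pathway genes were counted against all genes tested, of which TGF-β raised 39.3% and lowered 33.4% in WT and 36.4% and 37.8% in KO, with medians of 0.03 and -0.01. Among partners of the neuropilins and carriers of heparan sulfate, which hold VEGF at the cell surface, 17 were tested. In WT 11 were higher and 4 lower (64.7% and 23.5%), and in KO 11 and 6 (64.7% and 35.3%), with medians of 0.42 and 0.40. Against WT, 10 were higher and 4 lower in KO-SD (58.8% and 23.5%, against 35.6% and 21.5% of all genes), and 10 and 7 in KO-TGF (58.8% and 41.2%, against 28.9% and 26.3%). The integrin Itgb3 went from 66.1 ± 2.43 to 279 ± 8.59 CPM in WT, and in KO from 52.1 ± 2.38 to 212 ± 2.6 (log2 2.08 and 2.02, adjusted p = 2.54e-30 and 2.03e-29). Plxna4, a plexin that signals for neuropilins, went from 8.52 ± 0.0947 to 23 ± 2.28 CPM in WT, and in KO from 7.63 ± 0.284 to 32.7 ± 1.03 (log2 1.43 and 2.1, adjusted p = 4.71e-17 and 1.67e-21). The interaction called 1 higher, which was Plxna4 (0.67, adjusted p = 1.93e-05), and 8 lower, which is 5.88% and 47.1% against 7.69% and 18.7% of all genes. DESeq2 called 3 and 5, and 2 were higher without WT-SD replicate 2, KO-SD replicate 1 or KO-SD replicate 3. With library size alone, 7 were lower in KO-SD and 6 higher in KO-TGF.

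Among 41 tested genes that carry the signal from VEGF receptors, 25 were higher and 11 lower with TGF-β in WT (61% and 26.8%, against 39.3% and 33.4% of all genes), and 24 and 10 in KO (58.5% and 24.4%, against 36.4% and 37.8%), with medians of 0.14 and 0.19. With library size alone these counts became 18 and 18 in WT and 16 and 20 in KO, so that the excess of rises depends on the scaling. Sphk1, a sphingosine kinase, rose from 2.09 ± 0.215 to 15.2 ± 0.265 CPM in WT, and in KO from 3.48 ± 0.505 to 20.7 ± 0.504 (log2 2.87 and 2.57, adjusted p = 8.18e-21 and 3.83e-21). Nfatc1, a factor activated by calcineurin, rose from 27.3 ± 1.46 to 86.1 ± 1.26 CPM in WT (log2 1.65, adjusted p = 5.24e-25). It rose alike in KO, from 28.4 ± 0.697 to 90 ± 3.05 CPM (log2 1.66, adjusted p = 5.68e-25). Pik3r1, the regulatory subunit of PI3-kinase, fell from 475 ± 10.3 to 179 ± 5.32 CPM in WT, and in KO from 518 ± 21.3 to 145 ± 7.32 (log2 -1.41 and -1.84, adjusted p = 3.63e-26 and 6.96e-29). Vav3, a guanine nucleotide exchange factor, rose in KO from 1.88 ± 0.0943 to 8.20 ± 0.558 CPM (log2 2.12, adjusted p = 1.29e-14) and was 1.15 above WT in TGF (adjusted p = 1.59e-09). Vav3 also rose in WT, from 1.67 ± 0.0247 to 3.71 ± 0.577 CPM (log2 1.14, adjusted p = 2.63e-07). Against WT, 22 of the 41 were higher and 6 lower in SD (53.7% and 14.6%, against 35.6% and 21.5%), and 22 and 9 in TGF (53.7% and 22%, against 28.9% and 26.3%), which became 13 and 14 in both conditions with library size alone. The interaction called 9 higher and 5 lower (22% and 12.2%, against 7.69% and 18.7%), which became 6 and 7 with library size alone.

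Oxygen sensing was read from 13 tested genes, of which 6 were higher and 4 lower with TGF-β in WT, and 5 and 4 in KO. These are 46.2% and 30.8% in WT and 38.5% and 30.8% in KO, near the 39.3% and 33.4%, and 36.4% and 37.8%, of all genes. Epas1 (HIF-2α) fell from 21.6 ± 0.583 to 9.45 ± 0.654 CPM in WT, and in KO from 11.6 ± 0.0935 to 3.85 ± 0.431 (log2 -1.19 and -1.59, adjusted p = 1.50e-15 and 4.88e-15), and in TGF it was lower in KO (-1.29, adjusted p = 5.78e-12). Against WT, 7 were higher and 2 lower in KO-SD, and 6 and 3 in KO-TGF (53.8% and 15.4%, and 46.2% and 23.1%, against 35.6% and 21.5%, and 28.9% and 26.3%, of all genes). With library size alone 3 were higher in KO-TGF. In the KO response 2 were higher and 7 lower with that scaling, and in the WT response 5 and 6. The interaction called 0 higher and 4 lower in edgeR, the same numbers as at an unadjusted p under 0.05, 0 and 1 in DESeq2, and 2 lower without WT-TGF replicate 3 or KO-TGF replicate 2.

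Of 24 tested genes known to respond to hypoxia, as Vegfa does, 14 were higher and 8 lower with TGF-β in WT (58.3% and 33.3%, against 39.3% and 33.4% of all genes; median 0.52 against 0.03). In KO 12 were higher and 8 lower, against 36.4% and 37.8% of all genes (median 0.12 against -0.01), which became 10 and 12 with library size alone. The members that moved most parted in direction. Bhlhe40, a transcriptional repressor, rose from 93.6 ± 3.5 to 380 ± 2.32 CPM in WT, and in KO from 94.4 ± 1.20 to 352 ± 0.435 (log2 2.02 and 1.90, adjusted p = 7.02e-32 and 3.82e-31). Slc2a1, the glucose transporter GLUT1, rose from 49.7 ± 1.44 to 112 ± 1.82 CPM and from 69.4 ± 1.41 to 170 ± 5.01 (log2 1.17 and 1.29, adjusted p = 6.14e-23 and 7.91e-25). Stc2 (stanniocalcin) fell in WT from 18.3 ± 0.954 to 6.33 ± 0.342 CPM (log2 -1.53, adjusted p = 9.63e-17). Its fall in KO was from 11.3 ± 0.813 to 5.81 ± 0.279 CPM (log2 -0.95, adjusted p = 2.05e-10). Adm, the vasodilator adrenomedullin, fell in WT from 5.37 ± 0.0485 to 1.49 ± 0.226 CPM (log2 -1.84, adjusted p = 4.39e-12). In KO Adm fell from 3.38 ± 0.421 to 0.305 ± 0.0293 CPM (log2 -3.45, adjusted p = 2.39e-13). Its response in KO was lower by 1.61 (interaction -1.61, adjusted p = 0.000682), which rests on a KO-TGF level near the floor of 0.128 to 0.163 CPM. Against WT, 16 were higher and 5 lower in KO-SD (66.7% and 20.8%, against 35.6% and 21.5%) and 14 and 5 in KO-TGF (58.3% and 20.8%, against 28.9% and 26.3%), each with a median of 0.33 against 0.05 and 0.01 over all genes. Ero1l, an oxidase of the endoplasmic reticulum, was at 163 ± 1.22 CPM in KO-TGF and 77.1 ± 5.97 in WT-TGF (log2 1.09, adjusted p = 2.05e-20). The interaction called 4 higher and 9 lower (16.7% and 37.5%, against 7.69% and 18.7%), and the latter became 4 in DESeq2 and 5 without KO-SD replicate 2.

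Among 36 angiopoietins, Tie receptors and other regulators of vessels, 23 were tested, and 13 were higher and 7 lower with TGF-β in WT (56.5% and 30.4%, against 39.3% and 33.4% of all genes) and 11 and 9 in KO (47.8% and 39.1%, against 36.4% and 37.8%). With library size alone these became 9 and 11 in WT and 9 and 12 in KO, so that the balance turned. Jag1, a Notch ligand, rose from 322 ± 8.69 to 1276 ± 39.4 CPM in WT, and in KO from 275 ± 3.24 to 957 ± 7.01 (log2 1.99 and 1.80, adjusted p = 1.23e-32 and 1.47e-31). Fgf2, an angiogenic growth factor, rose from 3.9 ± 0.141 to 14.7 ± 0.564 CPM in WT, and in KO from 3 ± 0.380 to 13.2 ± 1.06 (log2 1.91 and 2.14, adjusted p = 2.32e-17 and 1.89e-17). Adamts1, a protease that inhibits vessel growth, fell from 614 ± 2.48 to 223 ± 11.6 CPM in WT, and in KO from 535 ± 8.75 to 106 ± 4.43 (log2 -1.46 and -2.33, adjusted p = 2.08e-27 and 9.60e-32). S1pr1, a receptor of sphingosine 1-phosphate, fell from 7.96 ± 0.626 to 1.66 ± 0.418 CPM in WT, and in KO from 11.4 ± 0.817 to 3.28 ± 0.514 (log2 -2.26 and -1.79, adjusted p = 1.71e-14 and 5.35e-14).

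Between genotypes, 10 of the 23 were higher and 8 lower in KO-SD (43.5% and 34.8%, against 35.6% and 21.5% of all genes), and 7 and 9 in KO-TGF (30.4% and 39.1%, against 28.9% and 26.3%). Dcn (decorin), a proteoglycan that binds TGF-β, was 59.5 ± 3.76 CPM in KO-SD and 9.66 ± 0.668 in WT-SD (log2 2.62, adjusted p = 2.67e-25), and 19.1 ± 0.713 and 3.61 ± 0.323 in TGF (2.40, adjusted p = 1.44e-19). Serpinf1 (PEDF), an inhibitor of vessel growth, was 72.6 ± 4.11 CPM in KO-SD and 180 ± 6.30 in WT-SD (log2 -1.31, adjusted p = 7.00e-24). S1pr3 was 12.2 ± 0.817 CPM in KO-SD and 31.4 ± 0.703 in WT-SD (log2 -1.36, adjusted p = 1.04e-17). Thbs2, a thrombospondin, was called higher in KO-SD (log2 3.18, adjusted p = 8.88e-08), where its libraries ranged from 4.5 to 18 CPM against 0.85 to 1.19 in WT-SD, and its interaction was -2.59 (adjusted p = 0.000893). The interaction called 4 higher and 9 lower (17.4% and 39.1%, against 7.69% and 18.7%). Col18a1, whose product yields endostatin, had the highest value (1.10, adjusted p = 3.07e-15), with 142 ± 4.93 and 143 ± 6.72 CPM in WT and 65.8 ± 4.76 and 142 ± 6.40 in KO.

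Of 22 tested transcription factors of the ETS and vascular families, 12 were higher and 8 lower with TGF-β in WT (54.5% and 36.4%, against 39.3% and 33.4% of all genes). In KO 9 were higher and 11 lower, against 36.4% and 37.8% of all genes, and 7 and 13 with library size alone. Etv4 rose from 4.88 ± 0.585 to 14.4 ± 1.31 CPM in WT, and in KO from 3.34 ± 0.682 to 8.61 ± 1.04 (log2 1.56 and 1.37, adjusted p = 1.08e-13 and 2.81e-10). Hey1, a Notch target, rose in WT from 1.97 ± 0.206 to 5.65 ± 0.275 CPM (log2 1.52, adjusted p = 1.33e-10). Its rise in KO was from 1.89 ± 0.454 to 2.78 ± 0.129 CPM (log2 0.56, adjusted p = 0.00668). Ets2 fell in WT from 85.7 ± 1.35 to 42.4 ± 0.874 CPM (log2 -1.01, adjusted p = 6.58e-21). In KO Ets2 fell from 89.5 ± 1.81 to 45.9 ± 1.08 CPM (log2 -0.96, adjusted p = 2.82e-20). Against WT, 7 were higher and 5 lower in KO-SD (31.8% and 22.7%, against 35.6% and 21.5%). Klf2, a factor induced by shear stress in endothelium, was 12.3 ± 0.827 CPM in KO-SD and 4.70 ± 0.511 in WT-SD (log2 1.39, adjusted p = 1.21e-13). In TGF, 8 were higher and 9 lower (36.4% and 40.9%, against 28.9% and 26.3%). In edgeR with library size alone 0 of the 22 were higher (1 at an unadjusted p under 0.05), and in DESeq2 6 were. Gata2 was 11.8 ± 0.514 CPM in KO-TGF and 25.8 ± 0.343 in WT-TGF (log2 -1.13, adjusted p = 7.10e-16), and Erg, which keeps endothelial identity, had a log2 fold change of -2.22 (adjusted p = 2.88e-11). The interaction called 1 higher and 8 lower (4.55% and 36.4%, against 7.69% and 18.7%). The lists share Egln3 between oxygen sensing and hypoxia targets, and Tek, Tie1, Robo4, Sox17, Sox18 and Prox1 with the endothelial and lymphatic markers.

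The genes whose log2 CPM followed a member most closely across the 12 libraries were sought among 10064 genes, those that averaged 5 CPM or more. These correlations describe 4 groups of libraries and carry no test. Vegfa was followed by Nucb2 and Capn2 (r = 0.999 for both) and Vegfd by Meis2 (0.999) and Adgrl2 (0.997). Flt1 was followed by Mmp2, the gelatinase (0.995), and Btg1 (0.990), and Nrp2 by the netrin receptor Unc5c (0.994) and Tnfsf15 (0.990). Nrp1 had Snx18 (0.985) and the glypican Gpc6 (0.983), Vegfc had Col6a3 (0.998) and Lrp12 (0.994), Vegfb had Fam124a and Evc (0.995 for both), and Pgf had Gm9833 (0.985) and Ranbp1 (0.977). Likeness on this scale is of shape and not of size: Meis2 went from 139 ± 0.779 to 96.1 ± 2.67 CPM in WT while Vegfd fell 8.94-fold, and Unc5c, at 25.4 ± 0.259 CPM in WT-SD, 16.4 ± 0.327 in WT-TGF, 121 ± 3.14 in KO-SD and 68.8 ± 2.22 in KO-TGF, moved by factors closer to those of Nrp2.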

How the data were processed

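mRNA of MMC was sequenced in 12 libraries (4 groups of 3), mapped to groups by their labels. The values deposited by the authors are raw counts per gene, 1 whole number per gene and library. The authors used TopHat to align the single-end reads (genome mm10) and HTSeq-count to assign them to RefSeq genes by strand, as the submitters' processing notes and the study's methods state. Reads outside exons (10.3% to 15.4%), with several alignments (11.2% to 11.7%) or on overlapping genes (0.225% to 0.274%) were left out of library sizes and tests, so values of near-identical gene copies are uncertain.

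The counts were TMM-scaled (factors 0.887 to 1.12) and fitted by quasi-likelihood in edgeR 4.0.16 under R 4.3.3, 1 mean per group over all 12 libraries, Benjamini-Hochberg adjustment and the filter RPKM >1 in at least 1 library, which left 11476 genes. Following the study, calls were made at FDR <5%, with fold change >2 counted beside them. Exon lengths were unions of exons in GENCODE vM21 (24407 genes matched by symbol, 287 by an older symbol, 536 without a length). Coordinates and promoter windows are from RefSeq. Replicates differed by more than counting error (chi-square per degree of freedom 1.35 to 5.41 over 12 pairs). The exact intervals for Kdr and Flt4 cover counting error only, whereas the normal intervals of the fold changes use the SE of the fit. The fit was tested on simulated data.

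All 10 members are named. From each pathway list, up to 2 genes per direction and contrast were named by the largest log2 fold change at FDR <5%, fold change >2 and 5 CPM or more in the higher group, as were the 2 genes per member with the highest correlation. Markers are named where described, and Mirg, Egln3 and the markers shared between lists were named after their values were seen. The members, lists and rules were chosen with earlier results of these data known. DESeq2 1.42.0, library size alone, CPM >1 in 3 or more libraries as the filter, no filter, a block on the replicate number, fits of the 2 groups compared and leaving out each library were the alternatives. DESeq2 on all genes with a count, for Kdr and Flt4, was added after seeing the data.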

Additional observations from a re-analysis of the deposited data

Results flagged for a closer look

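The TGF-β response differed between genotypes, by the interaction term in edgeR (quasi-likelihood, Benjamini-Hochberg), for 6 of the 8 members tested, where 26.4% of all genes tested passed. The log2 response in KO minus that in WT was 0.36 for Vegfa (adjusted p = 9.77e-09) and 0.20 for Nrp2 (adjusted p = 0.000445). It was -0.51 for Vegfc (adjusted p = 0.000107), -0.70 for Vegfd (adjusted p = 0.0172), -0.82 for Flt1 (adjusted p = 4.03e-08) and -0.57 for Nrp1 (adjusted p = 1.14e-14). Nrp1 had log2 responses of 0.07 in WT, which turned to -0.12 with library size alone, and -0.50 in KO. The value of Vegfd is a difference between falls to 19 to 28 and 30 to 39 raw counts. Its call was lost in DESeq2 (-0.66, adjusted p = 0.0525), without WT-TGF replicate 2 (-0.59, adjusted p = 0.121) and without KO-TGF replicate 3 (-0.62, adjusted p = 0.0609).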

How the results depend on the processing

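The number of members called in each contrast stayed within 1.5 times its reported value in all 89 recomputations, a wide limit for so few members. The widest ranges with 1 library left out were 6 to 8 (KO against WT in SD) and 5 to 7 (interaction). For TGF-β in WT, 5 higher and 3 lower became 4 and 4 with library size alone. Of 852 recomputed fold changes of single members 806 kept their direction and side of the threshold. Of these 806, 571 came from fits with 1 library left out. Where that library lay outside the groups compared, the fold change could hardly move and only the shared spread changed. This limit bears on the counts of members and of lists as well. Of 2136 recomputed list counts 69 were marked as moved. Of 40 group levels of members, 23 were marked as moved with library size alone and 17 as the same. Library size alone turned Nrp1 with TGF-β in WT to -0.12 and Vegfc in KO against WT in TGF to -0.01. Kdr in KO against WT in TGF turned to 0.42 without WT-TGF replicate 3 and to 0.25 without KO-TGF replicate 1, and its interaction to 0.01 without WT-TGF replicate 3 (ranges with 1 library left out -0.91 to 0.42 and -1.32 to 0.01). The cause was not tested. With library size alone Vegfb gained a call in KO against WT in TGF (-0.25, adjusted p = 0.017) and in the interaction (-0.29, adjusted p = 0.0362), Pgf in the interaction (-0.67, adjusted p = 0.0442) and Nrp1 in KO against WT in SD (-0.15, adjusted p = 7.41e-07), and Vegfb lost its call in SD (0.05, adjusted p = 0.527). The replicate number as a block changed no call of a member. No strong pairing by number was seen: deviations of same-numbered libraries correlated at -0.028 to 0.087 (18 pairs), against -0.095 to 0.039 for other numbers. These ranges overlap and cannot exclude a weak pairing. The block moved 1 list count, the co-receptor partners higher in the interaction, from 1 to 2. Depth limits Kdr, with 7 to 24 counts over the 3 libraries of a group, and Flt4, with 4 to 32.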
